A study of Rattus norvegicus with 12 samples.

Results

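The Myc family and its partners are 8 rat genes: Mycn, Myc and Mycl, their dimerisation partner Max, and the antagonists Mxd1, Mxd4, Mxi1 and Mnt. All array probes whose target identifier maps to one of these symbols were taken. This gave 10 of 30367 probes, for 7 of the 8 genes, and 9 of the 10 were among the 20020 probes tested. No probe was matched to Mxd4, which is not analysed here. The second Mxd1 probe was left out of the tests, since it was well above background on 1 of 3 arrays in each group. The genes were chosen by symbol, with the low Mycn signal of these same low sodium arrays (the log2 diet difference of Mycn) already known. Their differences are therefore given as a description, with standard errors and no test, and no support is drawn from them.

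Expression was profiled in the left ventricle of male Sprague-Dawley rats in a diet model of metabolic syndrome, with 3 single-colour Agilent arrays in each of 4 groups. Rats on low sodium with angiotensin II (AngII) ate chow with under 0.01% NaCl and received AngII under the skin at 200 ng/kg/min during the last 4 of 8 weeks. Low sodium rats ate the same chow and had no infusion. Rats on normal sodium with AngII ate chow with 0.64% NaCl and had the same infusion, and normal sodium rats had 0.64% NaCl and no infusion. All 4 groups, controls included, ate 60% fructose, so none of them is a healthy baseline. The labels give neither the age of the rats nor any pooling of animals. Levels are the log2 of the signal intensity minus the log2 of the 75th percentile of the array, so that 0 is a fairly bright probe and each unit is a doubling. A level can be compared between arrays for 1 probe, but not between probes.

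Arrays were alike in most measures of quality, with 1 exception given below. Their 75th percentile was 855.8 to 1237 intensity units, their local background was 20 to 29.5, and no spot was saturated. Pearson's r across probes was 0.980 to 0.992 within groups and 0.977 to 0.993 between them. Normal sodium replicate 1 stood apart by its 88 non-uniform spots, where the other arrays had 0 to 3, and by a limma array weight of 0.272, the lowest of all. Its 75th percentile of 855.8 was also the lowest, and weights of other arrays ran up to 2.63. A replicate number marks 1 of 3 slides, each with 1 array per group. A group kept its place on every slide, so place on the slide and group cannot be told apart. The cardiomyocyte marker list, which holds Myl2 of the ventricle, stood 6.93 to 7.29 above the 75th percentile on all 12 arrays, and all 6 of its genes were well above background. The limma fit called 0 of 20020 probes (0%) in each of the 7 comparisons of diet and infusion, and the smallest adjusted p of the limma fit over them was 0.0646. At an unadjusted p under 0.05 it held 1437 probes for low against normal sodium without AngII, 2210 with AngII and 2514 for the mean of both. For AngII it held 1478 on normal sodium, 360 on low sodium, 578 for the mean and 1017 for the interaction. If no probe differed, a share of 0.05 of the 20020 probes would be expected under this cut. The counts of 360 and 578 are below that share, and 1017 is close to it.

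Proteins of the Myc family carry a basic helix-loop-helix leucine zipper, pair with Max and bind the E-box of DNA, where they raise transcription of genes for ribosomes, metabolism and the cell cycle. Mxd1, Mxd4, Mxi1 and Mnt pair with the same Max and recruit the Sin3 histone deacetylase complex instead, so that the outcome depends on which partner Max has. In the mouse heart Mycn is needed for growth of the embryonic myocardium, and in rodents Myc is induced when the adult ventricle is overloaded.

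The E-box that Myc and Max dimers bind, CACGTG, reads the same on both strands. It was searched for in the 250 bases before the start of each gene in the RefSeq promoter table of assembly GRCr8, which holds 6 of the 8 genes. Mycn and Myc are not in that table. The motif was found in 3 of the 6, against 1591 of 27457 promoters of the table (5.79%). Those 3 windows are shown because the site belongs to the family itself. Capitals mark the motif, and each sequence runs 5′ to 3′ on the strand of its gene. For Max, on the minus strand at chr6:101395301-101395340, the motif begins 33 bases before the start. For Mxd4, on the plus strand at chr14:80786567-80786606, it begins 197 bases before it, and for Mnt, on the plus strand at chr10:60197819-60197858, 123 bases before it.
Max: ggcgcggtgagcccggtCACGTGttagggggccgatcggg
Mxd4: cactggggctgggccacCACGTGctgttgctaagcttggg
Mnt: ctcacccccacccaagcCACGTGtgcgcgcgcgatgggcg
These letters were not in the windows of Mycl, Mxd1 and Mxi1. A match describes the sequence and does not show that the site is bound.

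Among the 7 measured members, Mycn had the largest difference between the diets, with lower signal on low sodium both with and without AngII. Mycn is the member best known from embryonic tissue and from human neuroblastoma. Its probe, A_64_P137277, was printed once and was well above background on all 12 arrays. Mycn levels were -2.65, -2.30 and -2.26 on low sodium with AngII (166, 215 and 238 intensity units) and -2.49, -2.64 and -2.34 on low sodium (220, 169 and 242). They were -1.43, -0.93 and -1.57 on normal sodium with AngII (425, 553 and 368) and -0.85, -1.86 and -0.98 on normal sodium (476, 275 and 576). All 6 low sodium arrays lay below all 6 normal sodium arrays. Normal sodium replicate 2 was the lowest of its diet and came closest to the low sodium arrays. Feature Extraction put the error of the Mycn signal at 10 to 10.2% of the signal on every array. It gave nearly the same for Max (10 to 10.1%), and Mycn has no repeated spots to measure the error. On normal sodium replicate 1, where Mycn was highest, the repeated spots of Myc and Mnt had SDs of 0.231 and 0.268. Both were the highest of any array.

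Group means of Mycn, in rising order, were -2.49 ± 0.15 on low sodium, -2.41 ± 0.21 once AngII was added to it, -1.31 ± 0.34 on normal sodium with AngII and -1.23 ± 0.55 on normal sodium (SD, n = 3 each). Neighbours of the same diet did not differ beyond their spread, and the step lay between the diets. Low minus normal sodium was -1.09 ± 0.26 with AngII (SE, n = 3 arrays per group, 95% interval -1.67 to -0.52), which is 2.13-fold lower. Without AngII it was -1.26 ± 0.26 (-1.83 to -0.69), which is 2.39-fold lower. The mean over both was -1.18 ± 0.18 (-1.58 to -0.77), 2.26-fold lower. Within slides 1, 2 and 3 the difference was -1.21, -1.37 and -0.70 with AngII and -1.64, -0.78 and -1.36 without it. Since all low sodium arrays lay below all normal sodium arrays, the direction had to be the same on every slide. Of the 20020 probes tested, 35 (0.175%) had a mean diet difference as low as that of Mycn or lower. Mycn was chosen with this difference known, so the share describes its size and lends it no support.

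The AngII differences of Mycn were smaller than their errors. The difference of AngII minus no infusion was 0.08 ± 0.26 on low sodium (-0.49 to 0.65) and -0.08 ± 0.26 on normal sodium (-0.65 to 0.49). On normal sodium the 3 slides disagreed in sign, with -0.59, 0.92 and -0.58, and without slide 2 the value was -0.59. The interaction, which takes the AngII difference of normal sodium from that of low sodium, was 0.17 ± 0.37 (-0.64 to 0.97), and 0.55 without slide 2. These intervals leave room for changes in either direction.

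**Figure D1:**
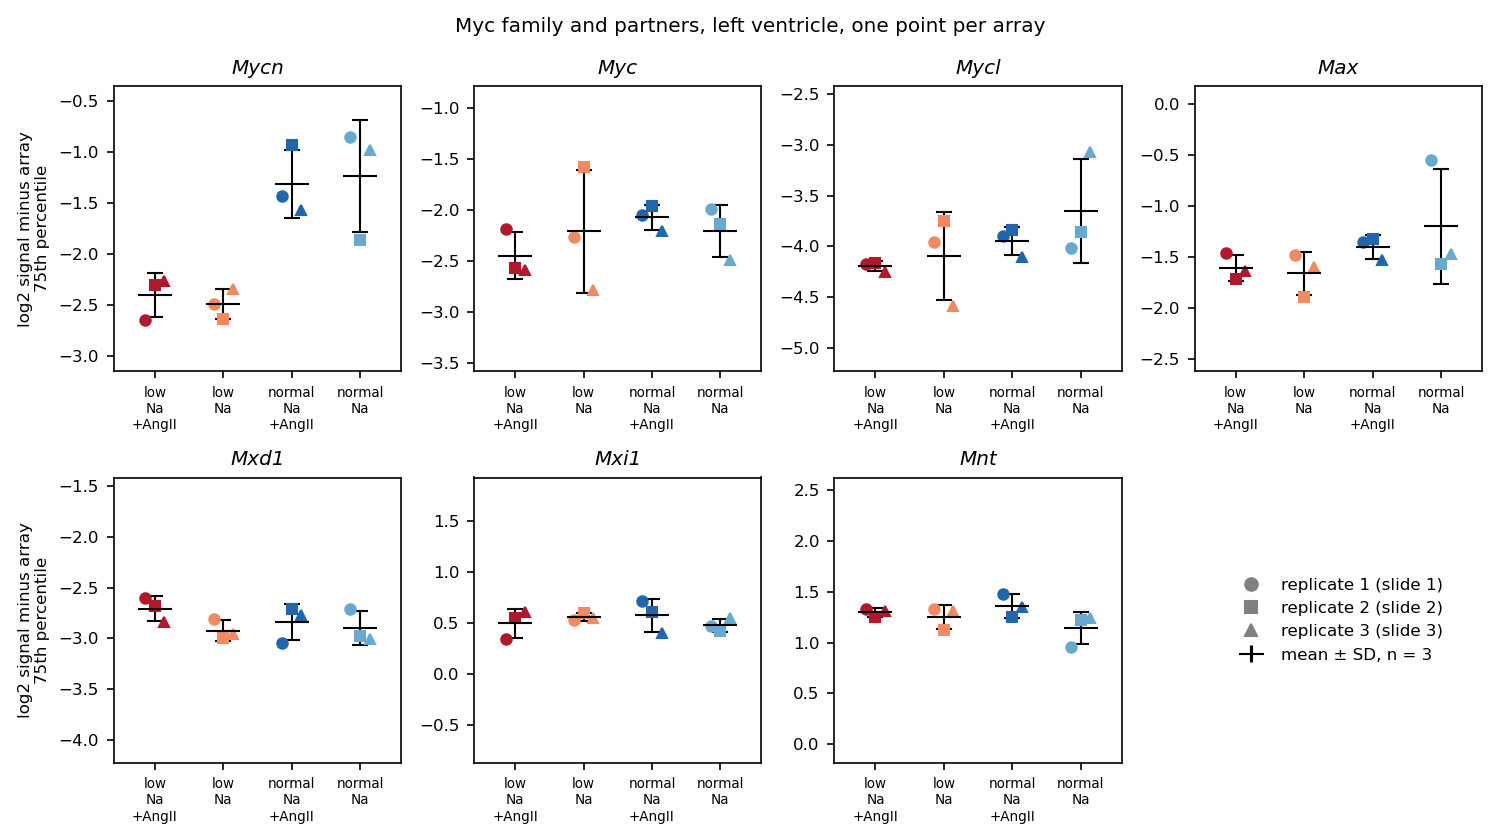
Level of each measured member (log2 signal minus the 75th percentile of the array, y axis, same height in log2 units in every panel) on each array, by group; shapes mark the replicate number, which is also the slide, and bars the mean ± SD (n = 3). Mycn is the panel in which all 6 low sodium points, at -2.26 or below, lie under all 6 normal sodium points, at -1.86 or above.

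Myc, the widely expressed founding member, was measured by a probe printed 10 times per array, whose spots differed by an SD of 0.034 to 0.231 (median 0.067). Its levels were -2.18, -2.57 and -2.59 on low sodium with AngII, -2.26, -1.58 and -2.78 on low sodium, -2.05, -1.96 and -2.20 on normal sodium with AngII, and -1.99, -2.13 and -2.49 on normal sodium. The groups overlapped in every comparison, though between the diets under AngII only the values -2.18 and -2.20 crossed. Low minus normal sodium was -0.38 ± 0.26 with AngII and 0.00 ± 0.26 without (SE, n = 3 per group). The low sodium group without AngII was the most scattered, with an SD of 0.60, replicate 2 being high and replicate 3 low.

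Mycl, the member first found in lung cancer, was read at 51.4 to 136 intensity units and was well above background on all arrays. Its levels were -4.17, -4.16 and -4.25 on low sodium with AngII, -3.96, -3.75 and -4.58 on low sodium, -3.90, -3.84 and -4.10 on normal sodium with AngII, and -4.02, -3.86 and -3.07 on normal sodium. Under AngII the 3 low sodium arrays lay below the 3 normal sodium ones, though by a difference of -0.25 ± 0.26, and of 0.12 in the authors' values. Without AngII the difference was -0.45 ± 0.26, but 0.09 without slide 3, where normal sodium replicate 3 was well above the rest.

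Max, the shared partner of the other members, had levels of -1.46, -1.71 and -1.64 on low sodium with AngII, -1.48, -1.89 and -1.60 on low sodium, -1.35, -1.32 and -1.53 on normal sodium with AngII, and -0.55, -1.57 and -1.47 on normal sodium. Normal sodium replicate 1, the array with the non-uniform spots, was far above the others, and all groups overlapped between diets. Low minus normal sodium was -0.21 ± 0.24 with AngII and -0.46 ± 0.24 without, the second being -0.14 without normal sodium replicate 1. The mean over both was -0.33 ± 0.17 (-0.70 to 0.04).

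The antagonists showed smaller differences. Mxd1, which is known from cells that leave the cycle to differentiate, had levels of -2.60, -2.68 and -2.84 on low sodium with AngII, -2.81, -3.00 and -2.96 on low sodium, -3.04, -2.71 and -2.77 on normal sodium with AngII, and -2.71, -2.98 and -3.01 on normal sodium. The groups overlapped in every comparison. Low minus normal sodium averaged 0.06 ± 0.09 for Mxd1 (-0.15 to 0.26), and -0.10 after normexp background correction. AngII minus no infusion was 0.22 ± 0.13 on low sodium and 0.06 ± 0.13 on normal sodium, the second changing sign to -0.18 in the authors' values.

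Mnt, the broadly expressed antagonist that opposes Myc in growing and resting cells alike, was also printed 10 times (spot SD 0.040 to 0.268, median 0.048). Its levels were 1.33, 1.25 and 1.31 on low sodium with AngII, 1.33, 1.12 and 1.31 on low sodium, 1.48, 1.25 and 1.35 on normal sodium with AngII, and 0.96, 1.22 and 1.24 on normal sodium. On normal sodium the 3 infused arrays lay above the 3 uninfused ones by a narrow gap, with a difference of 0.22 ± 0.12 (-0.04 to 0.47), which was 0.07 without slide 1. Low minus normal sodium averaged 0.02 ± 0.08 (-0.16 to 0.20).

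Mxi1, an antagonist of the Mxd group, had 3 tested probes, and they differed. The brightest one, A_64_P066271, read 0.34, 0.55 and 0.61 on low sodium with AngII, 0.53, 0.60 and 0.55 on low sodium, 0.72, 0.61 and 0.40 on normal sodium with AngII, and 0.47, 0.42 and 0.55 on normal sodium. Its groups overlapped, with a mean diet difference of 0.01 ± 0.08. The probe A_64_P115991 read -1.73, -1.73 and -1.61 on low sodium and -2.11, -2.08 and -1.81 on normal sodium, which do not overlap (low sodium higher, as for 4.94% of all probes). For this probe low minus normal sodium was 0.31 ± 0.15 without AngII and -0.19 ± 0.15 with AngII, whereas the brightest probe gave 0.08 ± 0.12 and A_64_P066276 gave -0.06 ± 0.17 without AngII. AngII minus no infusion on normal sodium was 0.35 ± 0.15 for A_64_P115991 (0.02 to 0.68), 0.09 ± 0.12 for the brightest probe and -0.06 ± 0.17 for A_64_P066276. On low sodium it was -0.15 ± 0.15 for A_64_P115991, and the interaction of that probe was -0.49 ± 0.21 (-0.96 to -0.03), against -0.16 ± 0.16 for the brightest probe. The slides gave -0.72, -0.86 and 0.09 for that interaction. Which Mxi1 transcripts each probe reads was not tested.

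Taken by count, 1 of 7 measured members lay above 0 and 6 below in the difference of low minus normal sodium with AngII, with a median of -0.21, against a median of -0.01 over all probes. Without AngII the members were 2 above and 5 below, with a median of -0.02, against -0.02 over all probes. None of the 7 was called by limma, as for 0% of all probes. Groups did not overlap, with low sodium lower, for 2 members with AngII (Mycn and Mycl; 10.4% of all probes) and for 1 without AngII (Mycn; 6.03%). With the 6 arrays of each diet set against each other, 1 member separated (Mycn; 0.859% of all probes). For AngII on normal sodium, 1 member separated upward (Mnt; 6.2% of all probes), and on low sodium 0 did, against 6.23% of all probes in either direction. These members were chosen with such values known, so nothing is read from the counts.

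**Figure D2:**
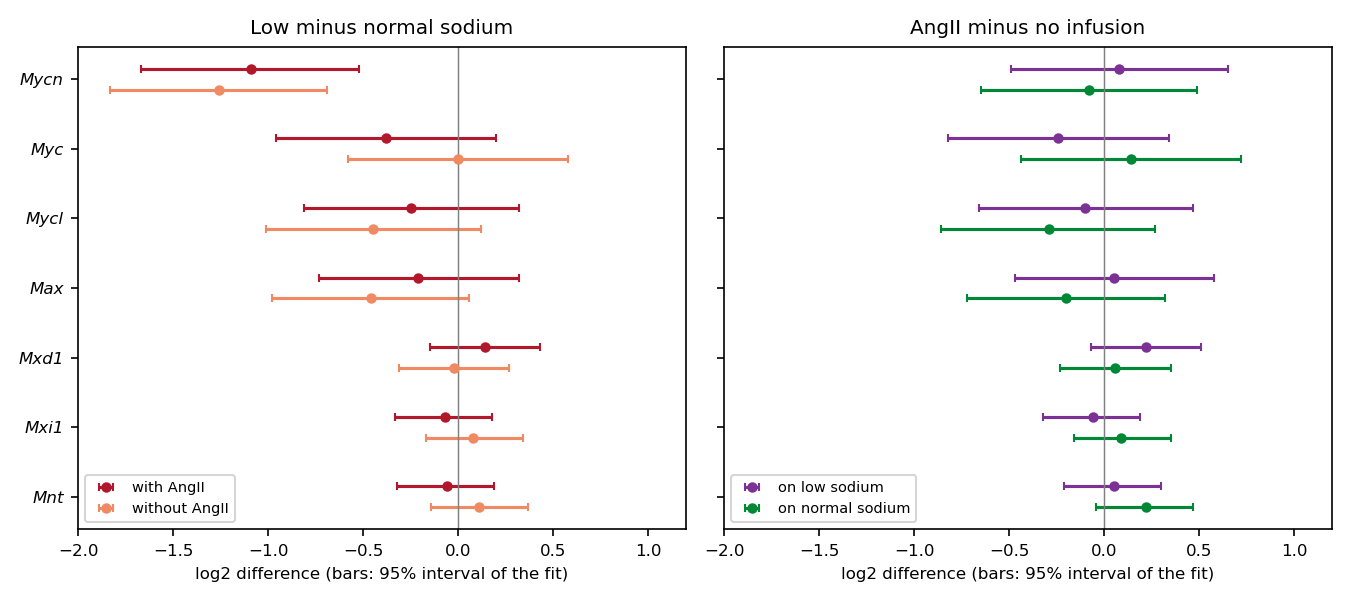
Log2 difference of each member, read by its brightest tested probe, with its 95% interval from the limma fit (x axis), for low minus normal sodium with and without AngII (left) and AngII minus no infusion on low and on normal sodium (right). The Mycn diet differences of -1.09 and -1.26, which led to the choice of these genes, lie farthest from 0, and the intervals are descriptions, not adjusted for the number of probes.

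The Mycn diet difference was recomputed under 23 other choices of background correction, normalisation, filter, block and left-out arrays. It kept its sign under all 23. Leaving out arrays or slides could not change the sign, since all low sodium arrays lay below all normal sodium arrays for Mycn. The filters change only which probes are tested. The block, with 1 array per group on each slide, left the difference at -1.09 with AngII and -1.26 without. The sign was therefore open only under other background correction or normalisation. With AngII the difference ranged over the settings from -1.29 without slide 3 to -0.84 after normexp background correction. Without AngII it ranged from -1.57 without normal sodium replicate 2, the array with the low Mycn signal, to -1.07 without normal sodium replicate 1 or without slide 1.

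**Figure D3:**
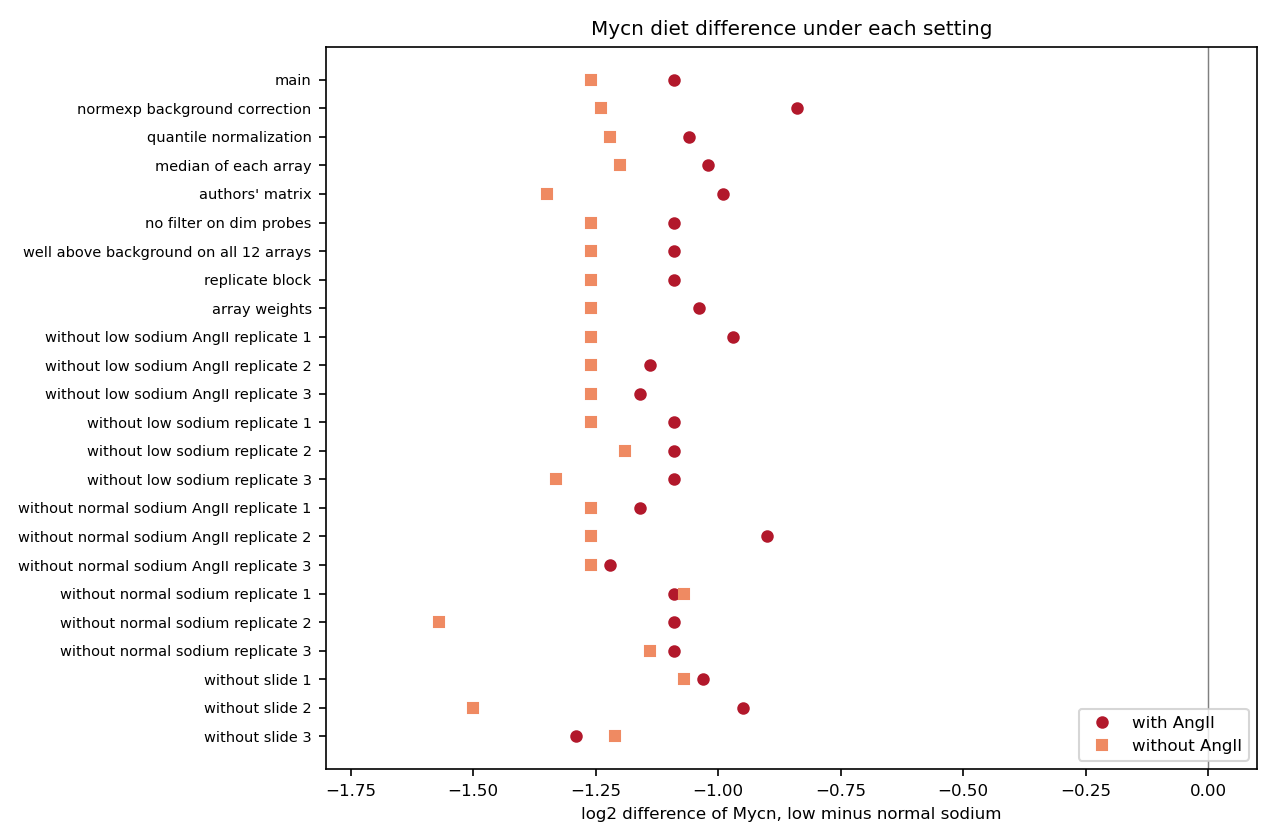
Mycn log2 difference, low minus normal sodium (x axis), with AngII (circles) and without AngII (squares) under each setting (rows). Every point lies at -0.84 or below, and leaving out normal sodium replicate 2 gives the lowest value, -1.57.

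Across the 12 arrays, Max was the member whose levels were most like those of Mycn. Pearson's r of levels with Mycn was 0.679 for Max, 0.488 for Mycl, 0.155 for Myc, 0.132 for Mxi1, -0.067 for Mxd1 and -0.244 for Mnt. The arrays share slides and groups, so these are descriptions over 12 arrays. With the group means removed, r was 0.536 for Max, 0.455 for Mxi1, 0.279 for Mxd1, 0.080 for Mycl, -0.243 for Myc and -0.406 for Mnt. Both Max (-0.55) and Mycn (-0.85) were highest on normal sodium replicate 1, the array with the non-uniform spots. The value of r without that array was not computed.

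Of 11211 genes, those whose levels tracked Mycn most closely over the 12 arrays included Prdm1 (r = 0.966), Adgre1 (0.936), Abcg3l1 (0.924), Inka1 (0.921), Fes (0.913), St13, Or1f26 and Prmt2 (0.912 each) and Fnbp1 (0.911). Since Mycn separates by diet, picking genes for likeness favours those that do so too, and their diet differences are not a result. Prmt2 still overlapped between the diets, with low sodium replicate 3 at -1.74 and normal sodium replicate 2 at -1.92. With the group means removed, r was 0.88 for Prdm1, 0.847 for Abcg3l1, 0.825 for Prmt2 and 0.658 for Adgre1. The choice of genes used this part of the likeness too, and arrays of 1 slide share it, so these values are descriptions. Prdm1 encodes the transcriptional repressor Blimp-1, Prmt2 a protein arginine methyltransferase, and Adgre1 an adhesion receptor on the surface of macrophages.

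Prdm1 levels were -3.67, -3.22 and -3.56 on low sodium with AngII, -3.31, -3.61 and -3.61 on low sodium, -2.71, -2.24 and -2.62 on normal sodium with AngII, and -1.89, -3.19 and -2.27 on normal sodium. As for Mycn, normal sodium replicate 1 was the highest array and normal sodium replicate 2 the lowest of its diet. Adgre1 levels were -1.67, -1.63 and -2.04 on normal sodium with AngII and -1.57, -1.84 and -1.56 on normal sodium, so that replicate 2 was the lowest of the uninfused arrays and replicate 3 of the infused ones. The 5 genes most opposed to Mycn were Fam210a (r = -0.954), Kgd4 (-0.944), Naa15 (-0.932), Fam133b (-0.930) and Usp28 (-0.903). Usp28 encodes a deubiquitinase that, in human cells, protects MYC protein from degradation. Its levels were 2.61, 2.52 and 2.59 on low sodium with AngII, 2.69, 2.66 and 2.61 on low sodium, 2.34, 2.20 and 2.30 on normal sodium with AngII, and 1.94, 2.11 and 2.14 on normal sodium. The low sodium arrays were the higher ones for Usp28, a separation that the choice of opposed genes favours.

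**Figure D4:**
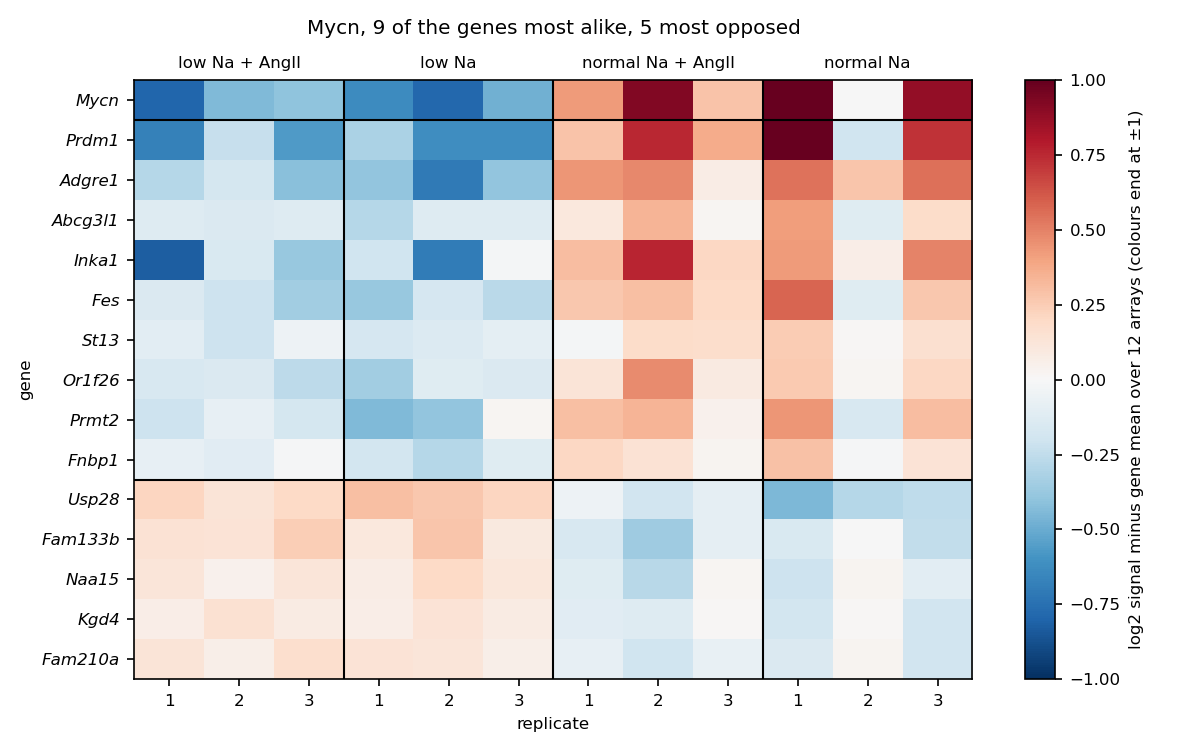
Log2 level of Mycn, of 9 of the genes most like it and of the 5 most opposed (rows) on each array (columns, by group and replicate), minus the mean of the gene over 12 arrays, with colours ending at 1 log2 unit either way. Normal sodium replicate 2 is pale in the Mycn and Prdm1 rows, where the other normal sodium arrays are red.

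Markers of other cell types also had different values by diet. All 5 macrophage markers (Cd68, Csf1r, Adgre1, Mrc1 and Cd163) were lower on low sodium, with a median difference of -0.50. Their mean level ranged over -2.38 to -2.29 on low sodium with AngII and -2.93 to -2.17 on low sodium. It was -1.82 to -1.73 on normal sodium with AngII and -2.07 to -1.81 on normal sodium. All low sodium arrays thus lay below all normal sodium arrays in this mean. Of single probes 0.859% did so, and the share for means of 5 genes was not counted. The list holds Adgre1, named above for its likeness to Mycn, so a resemblance to Mycn is partly built in. Endothelial markers were lower for 5 of 5 (median -0.20), fibroblast markers for 5 of 5 (-0.25), Schwann cell and neuron markers for 5 of 5 (-0.16) and cardiomyocyte markers for 5 of 6 (-0.07). Lymphocyte markers were lower for 3 of 3 tested (-0.09), while neutrophil (0.05, 2 tested) and skeletal muscle markers (0.17, 3 tested) were lower for 0. Smooth muscle and pericyte markers were lower for 2 of 5 (0.14). In 3 lists the median differed in sign with the infusion: it was -0.23 with AngII and 0.51 without it for smooth muscle and pericyte markers, -0.37 and 0.19 for lymphocyte markers, and 0.46 and -0.37 for neutrophil markers. None of the 3 atrial markers was lower on low sodium, with a median of 0.93. They were uneven, with Sln at 2.2, Myl7 at 0.93 and Myl4 at 0.03. Their mean level was 2.02 to 3.77 on low sodium with AngII and 1.67 to 3.72 on low sodium, against 0.78 to 2.44 on normal sodium with AngII and 1.06 to 2.82 on normal sodium. The part of any of these cells in the Mycn difference was not tested. In tissue RNA of this kind fewer cells of a type and less RNA per cell cannot be told apart.

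Other genes of the network were taken as 10 lists with 155 genes, of which 124 were tested, and 0 of the 124 were called by limma in any comparison (0% of all probes). Differences below are the mean of low minus normal sodium, for which the median of all probes was -0.01 and 48.3% of probes lay above 0. The 6 arrays of each diet did not overlap for 1.3% of all probes, with low sodium higher for 0.44% and lower for 0.859%. Among 3 tested network members outside the family list, 1 was above 0 and 2 below, with a median of -0.03. Mxd3, the antagonist expressed in dividing cells, stood at -0.73 ± 0.27. It was well above background on 9 of 12 arrays, and its slides gave -0.51, -0.26 and -1.42. Mlxipl, the glucose-responsive factor ChREBP that pairs with Mlx, stood at 0.41 ± 0.19, and Mlx at -0.03 ± 0.08.

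Genes for proteins that work with Myc on chromatin lay around 0 as a list. Of 15 tested cofactors, 7 were above 0 and 8 below, with a median of -0.02. They ran between Kat2a, a histone acetyltransferase, at -0.44 ± 0.18 and Crebbp, another one, at 0.27 ± 0.24. The Sin3 complex, used by the antagonists, had 3 of 6 above 0, with a median of 0.00, with Hdac1, its histone deacetylase, at -0.14 ± 0.12 and the corepressor Ncor1 at 0.22 ± 0.08. Regulators of Myc protein turnover had 9 of 17 above 0 and a median of 0.01, between the mitotic kinase Plk1 at -0.51 ± 0.26 and the kinase Pim3 at 0.46 ± 0.11. Usp28, described above, also belongs to this list (0.44 ± 0.07).

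Genes known as targets of Myc were split by function. Ribosome biogenesis genes had 6 of 19 above 0 and 13 below, with a median of -0.07. The median was -0.01 with AngII and -0.14 without it, the second being -0.04 without normal sodium replicate 1. Rrs1, a ribosome assembly factor, stood at -0.29 ± 0.07 and did not overlap between diets, and Nolc1, a nucleolar phosphoprotein, at 0.13 ± 0.10. Metabolic and translation targets had 13 of 22 above 0, with a median of 0.07. Prps2, which makes the sugar phosphate for nucleotides, was the 1 whose diets did not overlap, at -0.40 ± 0.10. The extremes were Slc1a5, a glutamine carrier, at -0.52 ± 0.19 and the transferrin receptor Tfrc at 1.38 ± 0.51.

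Tfrc was uneven within groups. Its levels were 3.22, 2.62 and 3.09 on low sodium with AngII, 2.76, 2.78 and 2.69 on low sodium, 0.37, -0.12 and 3.12 on normal sodium with AngII, and 1.18, 2.90 and 1.41 on normal sodium. The low sodium arrays were all high, and 1 array of each normal sodium group was as high as they were.

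Cell cycle targets had 2 of 12 above 0 and 10 below, with a median of -0.08. The median was -0.28 with AngII and -0.18 without it, and for the mean of both it was -0.02 without slide 3 and -0.18 without slide 2. The list ran between Cks2, a small subunit of cyclin-dependent kinases, at -0.73 ± 0.30 and the telomerase gene Tert at 0.06 ± 0.27. Genes that Myc represses had 3 of 5 above 0 (median 0.01), with Cdkn1a, the cell cycle inhibitor p21, at -0.20 ± 0.11 and Ndrg1, a stress-responsive gene, at 0.13 ± 0.09. Upstream signals had 5 of 8 above 0 (median 0.04), with beta-catenin (Ctnnb1) at -0.27 ± 0.13 and the Notch target Hey2 at 0.34 ± 0.12.

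General proliferation genes had 1 of 17 above 0 and 16 below, with a median of -0.61. This size rests largely on slide 3. Within slides 1, 2 and 3 the list median was -0.44, -0.15 and -1.21, and it was -0.30 without slide 3. With AngII the median was -0.68, but -0.18 without replicate 3 of normal sodium with AngII. Without AngII it was -0.52, but -0.27 without slide 3. Ccnb2, a mitotic cyclin, was the lowest at -0.97 ± 0.35, and Tyms, which makes thymidylate, the highest at 0.30 ± 0.24. Ccnb1, the other mitotic cyclin, read -4.28, -4.45 and -4.04 on low sodium with AngII, -4.51, -4.07 and -4.35 on low sodium, -3.78, -3.80 and -2.50 on normal sodium with AngII, and -3.68, -3.46 and -3.47 on normal sodium. It was the 1 gene of the list whose 6 low sodium arrays lay below all 6 normal sodium arrays, with a difference of -0.84 ± 0.21. The macrophage markers given above were also lower on low sodium, and their part in this list was not tested. AngII minus no infusion had a median of 0.17 on low sodium and 0.22 on normal sodium for the same list, against 0.00 and -0.01 over all probes. On normal sodium it was -0.03 without infused replicate 3, and on low sodium 0.04 without slide 3.

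**Figure D5:**
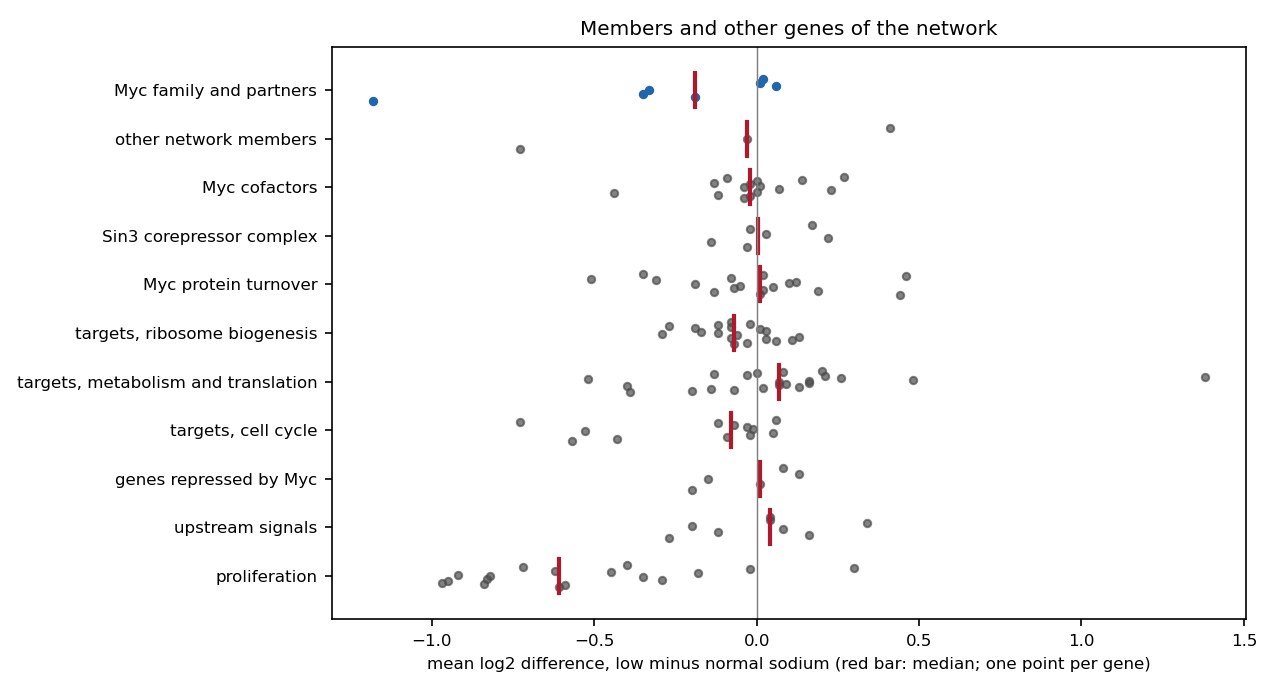
Mean log2 difference of low minus normal sodium (x axis) for each measured member and each tested gene of the 10 network lists (rows; 1 point per gene, red bars are list medians). The proliferation list has its median at -0.61 (-0.30 without slide 3), and Mycn is the leftmost point of the top row at -1.18.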

How the data were processed

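Per the file headers, the deposited signal intensities are background-subtracted within each array by Agilent software (Feature Extraction 10.7.3.1), with other columns of 0 or 1 flags for spots. The submitters' processing notes name version 11.0.1.1, R 3.3.04 and limma. The authors' own matrix holds log2 values of 20438 probes, normalised by a method not given in the sources used here. It was used as an alternative.

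Control spots (1377) and outlier-flagged spots (296 to 421 per array) were left out and repeated spots averaged. The log2 intensity was reduced by that of the 75th percentile of the array over non-control probes. Probes entered the tests if 1 group or more had them well above background on each of its 3 arrays (in 0.5 or more of the spots). Names came from RefSeq through the target identifiers (18758 probes with 1 symbol, 11609 with none), and a gene takes the value of the brightest probe tested. limma 3.58.1 in R 4.3.3 (with the data.table package, version 1.17.8) fitted 1 mean per group over 12 arrays, with Benjamini-Hochberg adjustment at 0.05 over 20020 probes. Replicates are separate samples in the labels, which do not say more, so errors measure the spread between these arrays. The number of arrays limits the precision.

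The members and lists were chosen with earlier results of these data known. All members were named, with, for each list, the genes with the largest difference in each direction, up to 4 called genes, and the 10 genes most like Mycn and the 5 most opposed by r. Other genes (Mlx, Rrs1, Prps2, Ccnb1 and Usp28 as a list gene) were named after their values were seen. A gene that this rule would name is not reported here. Alternatives covered background, normalisation, filter, block, weights and left-out arrays. The headers show that a replicate number is a slide. After removal of group means, 17 of 18 same-numbered pairs correlated above 0.1 (0.047 to 0.432), against a median of -0.181 for other pairs.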

Additional observations from a re-analysis of the deposited data

How the results depend on the processing

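The fit called 0 probes in each of the 7 comparisons, and other settings called few. For AngII on normal sodium, limma called 5 probes after normexp background correction, 5 in the authors' matrix and 3 among probes well above background on all 12 arrays. Leaving out 1 array gave 0 to 9, the highest without low sodium replicate 1. For low against normal sodium with AngII, it called 3 probes after normexp, 1 after quantile normalisation, 1 in the authors' matrix, 4 among probes well above background on all 12 arrays and 8 with array weights. Leaving out 1 array gave 0 to 4, the highest without replicate 3 of low sodium with AngII. For the mean of both diet comparisons, normexp gave 4 probes and no filter on dim probes 1. Leaving out 1 array gave 0 to 10, the highest without normal sodium replicate 2. The same range was 0 to 2 for AngII on low sodium, 0 to 1 for low against normal sodium without AngII, and 0 to 0 for the mean AngII difference and the interaction. With the replicate number, which is the slide, as a block, limma called 0 probes in all 7 comparisons, so the pairing changed no call. The causes were not tested. Of the member differences, 1100 recomputed values stayed within 1 SD of replicates and 34 moved further, among them values of every member. The 1100 include the filter and block settings, which could not move a member difference. For the list medians these counts were 1533 and 7, including the left-out arrays and slides, which were added after seeing the data. The proliferation median of low minus normal sodium ranged over -0.77 to -0.35 as 1 array was left out. Mycn was 166 to 576 intensity units over a local background of 20 to 29.5, and Mycl 51.4 to 136, where background correction weighs more.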
